A study of Homo sapiens with 16 samples.

Results

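The 34 genes described here encode the enzymes and transporters of glycolysis and the sensors and targets of the response to low oxygen. They were chosen by name and not by a rule on measured values, from 19974 protein-coding genes on chromosomes 1 to 22 and X. Earlier results of these data were known when they were chosen. By role they comprise 9 genes of hexokinase and upper glycolysis (HK1, HK2, GPI, PFKL, PFKM, PFKP, ALDOA, ALDOC, TPI1) and 6 of lower glycolysis (GAPDH, PGK1, PGAM1, ENO1, ENO2, PKM). A further 6 act in the fate of pyruvate and in transport (LDHA, LDHB, PDK1, SLC2A1, SLC2A3, SLC16A3) and 4 in hypoxia sensing (HIF1A, EPAS1, EGLN1, EGLN3). The last 9 are hypoxia targets (VEGFA, BNIP3, BNIP3L, CA9, DDIT4, ADM, NDRG1, P4HA1, ANKRD37).

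Open chromatin was mapped with ATAC-seq, where Tn5 transposase cuts accessible DNA, in nuclei of cells sorted from brain organoids. The organoids came from the human embryonic stem cell line H9, genotype label WT, and were rich in dorsal telencephalon, which gives rise to the cerebral cortex. Progenitors were sorted by EGFP, joined through P2A to 1 allele of the neural progenitor gene SOX2, and neurons by dTomato, driven by the human SYN1 promoter from the AAVS1 locus. Progenitors and neurons were each taken on days 40, 60, 90 and 120, with 2 libraries per population and day, so that there were 8 groups and 16 libraries. Every group carries both reporters, and EGFP marks any cell that expresses SOX2. A single parental line was used, and whether the reporter line is 1 clone is not given in the sources used here. Labels do not say whether both libraries of a group are separate organoid cultures, so p-values measure spread between libraries that may be technical replicates.

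Glycolysis splits glucose into pyruvate in the cytosol, and pyruvate is then either oxidised in mitochondria or reduced to lactate and exported. When oxygen is scarce, the hydroxylases that mark the alpha subunits of hypoxia-inducible factors for destruction slow down, and the factors bind short core sequences near genes of glucose uptake, glycolysis and vessel growth. Brain organoids have no blood circulation, and proliferating neural progenitors are known as cells that rely on glycolysis more than mature neurons do.

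Each library had its own list of broad peaks, with 68364 to 138554 peaks that covered 36.9 to 104 Mb of the genome. The shortest list was progenitor day 120 replicate 2, and the next shortest was neuron day 60 replicate 2 with 54.8 Mb. The lists hold no read numbers, so depth is unknown and no counting interval could be given. Marker loci were scored in the same way as the 34 genes: 5 of 7 progenitor markers had more covered bases in progenitors, SOX2 among them with a log2 difference of 1.12 ± 0.13 (limma, Benjamini-Hochberg adjusted p = 1.07e-06). Of 8 neuron markers, RBFOX3 and NEFM had less in progenitors, with log2 differences of -0.59 and -0.64. Markers of other cells also moved with the sort. SPARCL1, S100B and GFAP, 3 of 5 astroglia markers, and TTR, 1 of 5 choroid plexus markers, had more covered bases in progenitors, and the summed astroglia loci held 9.56 to 24.9 kb in progenitor libraries and 7.79 to 16.4 kb in neuron libraries. The summed choroid plexus loci held 3.26 to 10.002 kb in progenitor libraries and 1.96 to 9.80 kb in neuron libraries, and no marker locus of either list was without covered bases. Of 5 mesenchymal markers, PDGFRB was higher in progenitors at 0.60 and DCN lower at -0.64, and the summed mesenchymal loci held 4.23 to 18.4 kb in progenitor libraries and 5.81 to 21.2 kb in neuron libraries. The part of these cells in the differences described next was not tested.

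The glycolysis and hypoxia genes were open at their ends in nearly every library of either population. A peak within 1 kb of a gene end was present in all 16 libraries for 28 of the 34 genes, while 58.6% of all protein-coding genes had one in all 16. A single progenitor library had such a peak at 30 to 34 of the genes, and a single neuron library at 30 to 32. The 6 exceptions were HK1, LDHA, SLC16A3, EPAS1, PFKL and CA9. HK1, the main hexokinase of brain, had a gene-end peak in 7 of 8 progenitor libraries and in 1 of 8 neuron libraries (Fisher's exact test, two-sided, p = 0.0101, adjusted over all genes tested 0.22). LDHA, which reduces pyruvate to lactate, had one in 3 progenitor and 3 neuron libraries, and SLC16A3, a lactate exporter, in 2 progenitor and no neuron libraries. EPAS1, the hypoxia-inducible factor 2 alpha subunit, had one in 7 progenitor and 5 neuron libraries. PFKL, a phosphofructokinase, had one in 7 progenitor and 8 neuron libraries, and CA9, a carbonic anhydrase, in 6 progenitor and 8 neuron libraries. By Fisher's exact test with Benjamini-Hochberg adjustment over 3360 genes, 0 of the 34 passed in either direction, where 0.387% of the genes tested were higher in progenitors and 0.0893% lower. HK1 was the only 1 of the 34 with an unadjusted p under 0.05. The share of all genes under that p is not given here, so this count does not set the 34 genes apart. Peak lists of sorted cells cannot tell fewer open cells from less open DNA per cell.

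A gene's outermost end in the gene table is not always the start site in use. RefSeq start sites on GRCh38.p14 (hg38 coordinates) were matched for 30 of the 34 genes, and SLC2A3, VEGFA, BNIP3L and NDRG1 were not matched. Of the 30, 20 had at least 1 start site whose window, 250 bases before to 50 after the start, held a peak in all 16 libraries, and 56.5% of all genes with a start site did. Peaks were also ranked by the authors' fold enrichment within each list, where a low percentage is a strong peak. The 26 start sites of these genes open in all 16 libraries had a median rank of 23.1%, and the median over all such sites was 20.5%. The ranks differed widely between the genes. The LDHA start at 18396351 held one of the strongest peaks of each list, with a median rank of 1.43% in progenitors and 2.34% in neurons. PGK1, which makes the first ATP of the pathway, ranked at 10.5% in progenitors and 15.0% in neurons. PKM, the pyruvate kinase gene, held a weak peak in all 16 libraries, at 78.2% in progenitors and 95.1% in neurons, and TPI1, triosephosphate isomerase, stood at 68.5% in progenitors and 90.7% in neurons. GAPDH, often taken as a constant reference gene, had a start-site peak in 6 progenitor and 8 neuron libraries, at 51.2% in progenitors and 60.5% in neurons. The EPAS1 start at 46297407 held a peak in 2 progenitor libraries, at 64.6%, and in 0 neuron libraries. ADM had a gene-end peak in all 16 libraries, but a start-site peak in 4 progenitor libraries, at 93.2%, and 1 neuron library, at 96.3%. Ranks in lists of different lengths show no change, so these values describe strength within each list.

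Promoters of LDHA, SLC16A3, ENO1 and GAPDH were picked for their number of ACGTG or GCGTG cores. It was the highest among the genes first chosen to be given values, which left out HK2 and BNIP3. These promoters are thus rich in cores by choice. The other LDHA start and the HK1 starts are shown because starts of the same gene differed in whether peaks lay over them. All are RefSeq sequences of GRCh38.p14, 300 bases each, 5′ to 3′ on the gene's strand, and capitals mark every ACGTG or GCGTG on either strand, so that CACGT and CACGC are capitalised too. LDHA has 2 RefSeq starts on the plus strand. The upstream one, at chr11:18394313-18394612, holds 6 cores counted over both strands, and each of its 2 CACGTG palindromes, an E-box, counts as 2 of them. No library had a peak over it. The downstream one, at chr11:18396101-18396400, holds 1 core and had a peak in all 16 libraries.
LDHA upstream start: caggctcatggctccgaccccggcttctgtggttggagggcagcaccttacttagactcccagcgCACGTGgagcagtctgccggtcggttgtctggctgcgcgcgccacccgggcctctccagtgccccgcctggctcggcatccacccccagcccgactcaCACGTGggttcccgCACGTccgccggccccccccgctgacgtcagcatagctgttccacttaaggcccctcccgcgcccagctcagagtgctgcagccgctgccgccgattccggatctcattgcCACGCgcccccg
LDHA downstream start: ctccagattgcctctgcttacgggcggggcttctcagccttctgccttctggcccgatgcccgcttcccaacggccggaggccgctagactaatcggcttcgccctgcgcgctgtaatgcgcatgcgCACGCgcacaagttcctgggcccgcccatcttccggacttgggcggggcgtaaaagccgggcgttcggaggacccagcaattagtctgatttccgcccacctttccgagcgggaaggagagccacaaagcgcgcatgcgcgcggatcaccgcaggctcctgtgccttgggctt
The SLC16A3 window with the most cores, 3, lies at chr17:82234649-82234948 on the plus strand, and no library had a peak over it. No SLC16A3 start window held a peak in any progenitor library. The windows of the starts at 82229042 and 82235774 each held one in 1 neuron library of day 40, at ranks of 97.5% and 94.1%. ENO1, enolase 1, at chr1:8878637-8878936 on the minus strand, holds 2 cores and was open in all 16 libraries. The GAPDH window at chr12:6535014-6535313 on the plus strand holds 1 palindromic CACGTG, counted as 2 cores.
SLC16A3: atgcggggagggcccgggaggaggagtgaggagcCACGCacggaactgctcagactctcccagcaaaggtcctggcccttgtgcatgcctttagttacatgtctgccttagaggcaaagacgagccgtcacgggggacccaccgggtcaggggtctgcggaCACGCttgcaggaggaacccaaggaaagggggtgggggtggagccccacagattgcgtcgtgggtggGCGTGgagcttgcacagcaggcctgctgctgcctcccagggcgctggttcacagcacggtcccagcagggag
ENO1: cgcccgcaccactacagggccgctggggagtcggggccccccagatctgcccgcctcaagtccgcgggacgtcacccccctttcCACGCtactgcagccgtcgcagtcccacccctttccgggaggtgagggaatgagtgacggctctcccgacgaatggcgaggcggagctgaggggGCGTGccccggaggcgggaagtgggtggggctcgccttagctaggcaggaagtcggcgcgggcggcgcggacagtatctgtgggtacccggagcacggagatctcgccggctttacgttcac
GAPDH: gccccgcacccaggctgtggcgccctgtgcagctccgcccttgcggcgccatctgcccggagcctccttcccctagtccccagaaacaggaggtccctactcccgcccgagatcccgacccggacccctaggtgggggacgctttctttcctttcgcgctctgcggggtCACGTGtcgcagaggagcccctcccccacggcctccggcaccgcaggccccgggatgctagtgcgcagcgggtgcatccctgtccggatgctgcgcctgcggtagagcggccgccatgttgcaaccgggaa
HK1 has 7 RefSeq starts, and 2 are shown, picked after the peaks over them had been seen. The one at chr10:69278246-69278545 on the plus strand holds no core, has a GC content of 47.0% and had a peak in 7 progenitor and 0 neuron libraries. The one at chr10:69318814-69319113 on the plus strand holds 1 core, has a GC content of 74.3% and had a peak in all 16 libraries.
HK1 start at 69278496: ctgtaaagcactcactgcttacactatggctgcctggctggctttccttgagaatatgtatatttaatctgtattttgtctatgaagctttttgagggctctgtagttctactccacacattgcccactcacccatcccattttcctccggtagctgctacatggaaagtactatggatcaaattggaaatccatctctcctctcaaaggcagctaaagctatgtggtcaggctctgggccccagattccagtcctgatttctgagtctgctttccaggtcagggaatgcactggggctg
HK1 start at 69319064: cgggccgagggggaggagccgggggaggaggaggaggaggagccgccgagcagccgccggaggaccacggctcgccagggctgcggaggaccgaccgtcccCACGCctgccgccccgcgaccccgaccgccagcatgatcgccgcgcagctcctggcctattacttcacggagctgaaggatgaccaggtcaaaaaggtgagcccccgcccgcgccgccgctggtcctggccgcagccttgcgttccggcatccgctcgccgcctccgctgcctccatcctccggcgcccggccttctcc

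ACGTG stood in 23 of the 56 promoters of these genes, 41.1%, against 23.1% of 22132 RefSeq promoters of the same length. GCGTG stood in 39.3% of the genes' promoters and in 43.0% of all promoters. At least 1 of the cores stood in 66.1% of the genes' promoters and in 54.7% of all, and the palindrome CACGTG, which contains ACGTG on both strands, in 12.5% of the genes' promoters and 8.34% of all. Promoters of 1 gene often overlap, so the 56 are not separate cases. The most cores in a window was 6, in LDHA, in HK2, a hexokinase induced by low oxygen, and in BNIP3, a mitophagy receptor. The HK2 window, with its start at 74835170, was open in all 16 libraries. A match describes the letters in these windows and says nothing of whether a factor binds there.

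The amount of open chromatin around the genes was compared as locus coverage, the bases covered by peaks in the gene and 20 kb on either side. In 25 of the 34 windows other protein-coding genes lie as well, so a peak there need not belong to the named gene. All 34 genes passed the filter of 500 covered bases in at least 2 libraries. Together the 34 loci held 147.6 ± 33.9 kb in progenitor libraries and 144.9 ± 20.9 kb in neuron libraries (SD, n = 8 each), or 0.184% ± 0.0115 of all covered bases in progenitors and 0.191% ± 0.0211 in neurons. For the test, coverage was log2 of the bases plus 500 minus log2 of the library's total covered bases, and 18755 genes were fitted in limma with adjustment over all of them. Since the total is subtracted, a locus whose peaks do not change is scored higher where the list is shorter.

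Between progenitors and neurons over the 4 days, 4 of the 34 genes passed an adjusted p of 0.05. ENO1 and SLC2A3 had more covered bases in progenitors, and LDHA and SLC16A3 had less. Over all genes tested, 9.90% were higher in progenitors, 11.1% were lower and 21.0% passed in either direction, so the 4 genes, in number, do not stand above the genes at large. The median log2 difference was -0.07 over the 34 genes and -0.05 over all genes, and 13 of the 34 differences were positive. At an unadjusted p under 0.05 there were 7 of the 34 genes and 6222 of all 18755. For none of the 34 were the covered bases of the 8 progenitor and the 8 neuron libraries without overlap, where 0.491% of all genes showed such a separation.

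**Figure D1:**
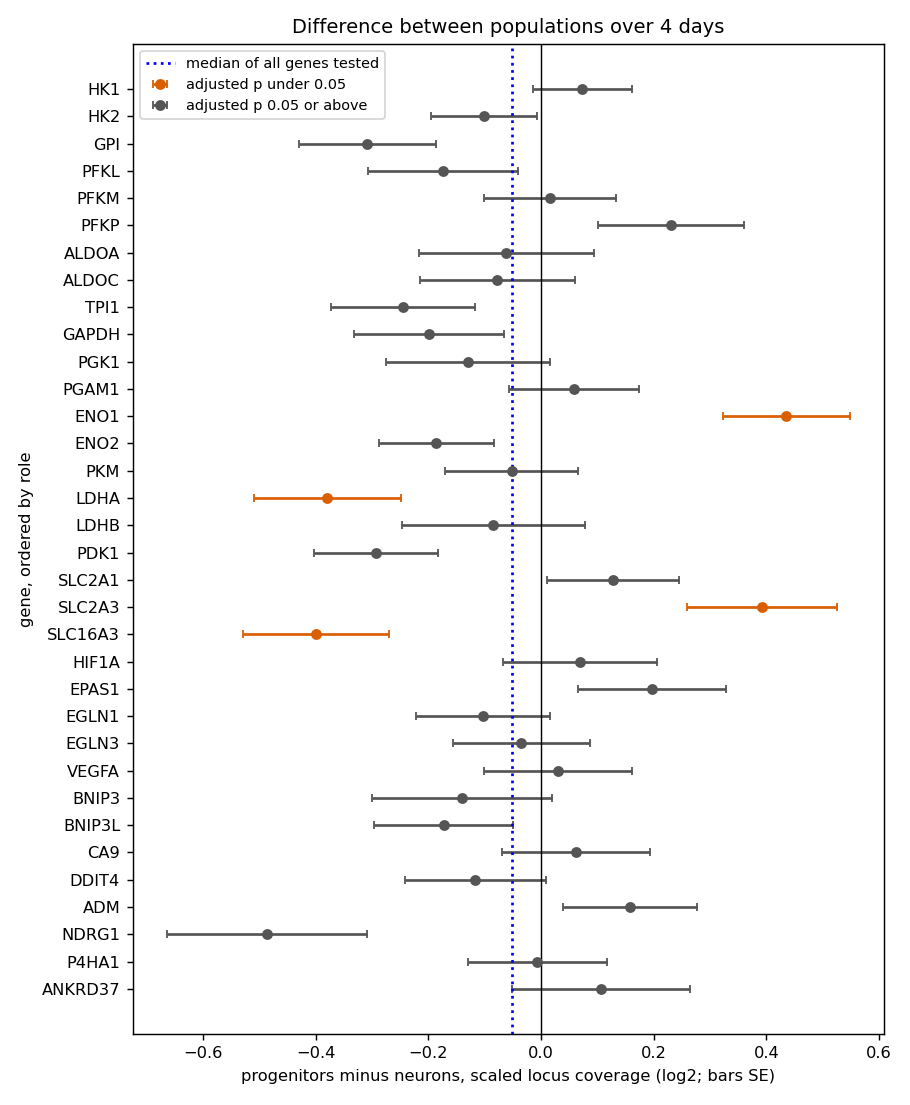
Difference in scaled locus coverage, progenitors minus neurons over the 4 days, for the 34 genes by role (x axis, log2, bars SE of the limma fit; orange, adjusted p under 0.05; dotted line, median of all genes tested). ENO1 at 0.44 and SLC2A3 at 0.39 stand right of zero and LDHA at -0.38 and SLC16A3 at -0.40 left of it; with lists of equal length SLC2A3 stood at -0.59.

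In hexokinase and upper glycolysis, 0 of 9 genes passed. HK1 held 5.68 kb at the lowest, 10.1 kb at the median and 11.8 kb at the highest in progenitors, against 6.42, 8.61 and 11.6 kb in neurons. The populations overlapped throughout, with a difference of 0.07 ± 0.09 (SE, adjusted p = 0.607). The largest difference of the group was that of GPI, the isomerase that makes fructose 6-phosphate, whose window also holds GARRE1 and PDCD2L. GPI held 0.811 to 4.35 kb in progenitors with a median of 3.50 kb, and 2.34 to 4.47 kb in neurons with a median of 3.73 kb. The lowest library was progenitor day 120 replicate 2, and the difference of -0.31 ± 0.12 did not pass (adjusted p = 0.0726). It did pass in 5 of 26 alternatives, among them the fit without that library (-0.33, adjusted p = 0.0355) and lists of equal length (-0.51, adjusted p = 0.00980). PFKP, the platelet-type phosphofructokinase, stood at 0.23 and TPI1 at -0.24, and neither passed (adjusted p = 0.222 and 0.183). The aldolases ALDOA and ALDOC, which split fructose 1,6-bisphosphate, had medians of 4.24 and 2.19 kb in progenitors, against 4.15 and 2.15 kb in neurons. The populations overlapped at both aldolases, with scaled differences of -0.06 and -0.08. HK2, PFKL and the muscle-type phosphofructokinase PFKM stood at -0.10, -0.17 and 0.02.

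In lower glycolysis, 1 of 6 genes passed. ENO1 held 2.86 kb at the lowest, 5.10 kb at the median and 5.87 kb at the highest in progenitors, against 2.38, 3.19 and 4.01 kb in neurons. Of the progenitor libraries, 6 lay above the highest neuron library, and the exceptions were day 40 replicate 1 and day 120 replicate 2. The means were 4.82 ± 1.04 kb in progenitors and 3.27 ± 0.572 kb in neurons (SD, n = 8 each), giving 0.44 ± 0.11 on the scaled log2 measure (limma, adjusted p = 0.00674). No other protein-coding gene lies in the ENO1 window. The ENO1 call held whichever of the 16 libraries was left out (adjusted p 0.00289 to 0.0249). It did not hold in windows of 5 kb flanks (0.20, adjusted p = 0.324), with a pseudocount of 2000 bases (adjusted p = 0.0855) or without scaling (0.49, adjusted p = 0.0505). Much of the ENO1 difference lay in 1 region 10543 bases outside the gene, at chr1:8889229-8890734. That region held 1.20 kb on average in progenitors and 0.359 kb in neurons. It had a peak in 8 progenitor and 5 neuron libraries and was picked after its values had been seen.

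GAPDH, which oxidises glyceraldehyde 3-phosphate, held 3.44 to 5.22 kb in progenitors with a median of 5.12 kb, and 4.24 to 6.75 kb in neurons with a median of 5.30 kb. Its difference was -0.20 ± 0.13 (adjusted p = 0.319). GAPDH stood at 0.01 with 5 kb flanks, and at -0.33 without progenitor day 120 replicate 2, where it passed (adjusted p = 0.0391). PKM held 3.37 to 6.29 kb in progenitors and 2.94 to 8.31 kb in neurons, with medians of 5.83 kb in progenitors and 5.60 kb in neurons. PKM differed by -0.05 ± 0.12 (adjusted p = 0.804), but by 0.78 with lists of equal length (adjusted p = 0.00704), so that its sign depends on how list length is treated. ENO2, the neuronal enolase, stood at -0.19 ± 0.10 and did not pass (adjusted p = 0.213). PGK1 and PGAM1, a phosphoglycerate mutase, stood at -0.13 and 0.06.

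Among the 6 genes of pyruvate fate and transport, 1 was higher and 2 were lower in progenitors. SLC2A3, the high-affinity glucose transporter GLUT3, held 1.85 kb at the lowest, 4.13 kb at the median and 6.22 kb at the highest in progenitors, against 2.05, 2.72 and 3.26 kb in neurons. The highest neuron library lay below 6 of the progenitor libraries, while progenitor day 60 replicate 2 lay within the range of the neurons and progenitor day 120 replicate 2 below it. The means were 4.08 ± 1.34 kb in progenitors and 2.75 ± 0.395 kb in neurons (SD, n = 8 each), and progenitors minus neurons came to 0.39 ± 0.13 in scaled log2 coverage (limma, adjusted p = 0.0364). The SLC2A3 window also holds no other protein-coding gene. With every list cut to the covered length of the shortest, keeping the peaks of highest −log10 q, the sign turned (-0.59, adjusted p = 0.246). A stretch 12947 bases outside the gene, at chr12:7904482-7906283, had a peak in 7 progenitor and 2 neuron libraries, with 1.03 kb on average in progenitors and 0.131 kb in neurons. That stretch was picked after its values had been seen.

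LDHA held 1.04 kb at the lowest, 2.39 kb at the median and 3.71 kb at the highest in progenitors, against 2.62, 3.005 and 3.55 kb in neurons. The lowest 4 values of all 16 libraries were the progenitor libraries of days 40 and 120, and at days 60 and 90 the populations overlapped. The means were 2.44 ± 0.884 kb in progenitors and 3.04 ± 0.304 kb in neurons (SD, n = 8 each), and progenitors minus neurons came to -0.38 ± 0.13 in scaled log2 coverage (limma, adjusted p = 0.0384). The LDHA window also holds the gene LDHC. SLC16A3 held 0.32 kb at the lowest, 3.24 kb at the median and 5.27 kb at the highest in progenitors, against 1.996, 4.12 and 5.86 kb in neurons. Its means were 3.33 ± 1.73 kb in progenitors and 3.90 ± 1.20 kb in neurons (SD, n = 8 each), a scaled difference of -0.40 ± 0.13 (limma, adjusted p = 0.0291). CCDC57 and CSNK1D lie in the same window, and a region over CSNK1D at chr17:82242666-82243762 was open in 4 progenitor and 8 neuron libraries and was likewise picked after they had been seen. SLC2A1, the glucose transporter GLUT1, held 4.45 ± 1.27 kb in progenitors and 3.82 ± 0.832 kb in neurons and did not pass (0.13, adjusted p = 0.483). LDHB, the lactate dehydrogenase subunit common in heart and neurons, held 1.61 ± 0.264 kb in progenitors and 1.67 ± 0.414 kb in neurons, a scaled difference of -0.08 (adjusted p = 0.766).

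**Figure D2:**
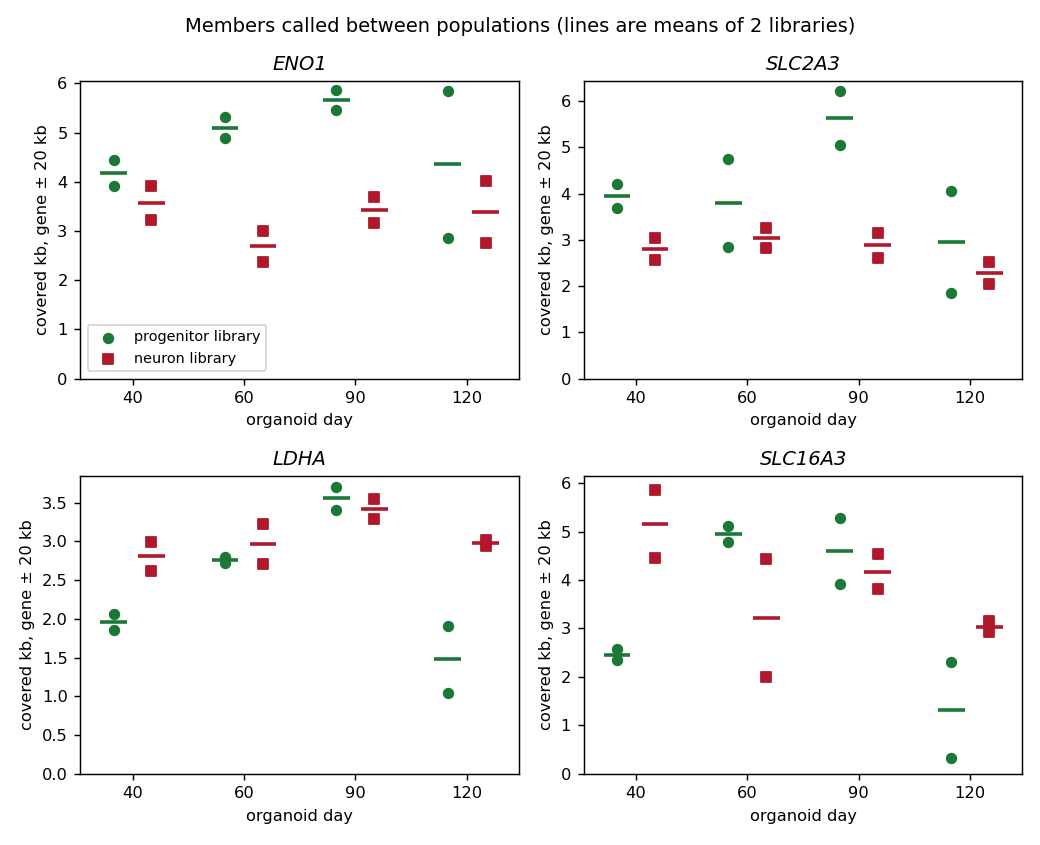
Covered kilobases in the gene and 20 kb on either side for ENO1, SLC2A3, LDHA and SLC16A3 (y axis) by organoid day (x axis); each point is a library, progenitors left of neurons, and lines are means of 2 libraries. At days 60 and 90 both ENO1 progenitor libraries lie above both neuron libraries, and at day 120 all 4 genes have progenitor replicate 2 below replicate 1; in scaled coverage SLC2A3 turned to -0.59 with lists of equal length.

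With 5 kb flanks LDHA stood at -0.14 (adjusted p = 0.655), SLC2A3 at 0.22 (0.317) and SLC16A3 at -0.39 (0.0841), and with a pseudocount of 2000 bases at -0.26 (0.265), 0.28 (0.182) and -0.25 (0.237), so that these calls were lost under both settings. The LDHA, SLC2A3 and SLC16A3 calls also each depended on single libraries. LDHA no longer passed in 12 of 16 fits that each left out 1 library (adjusted p 0.0529 to 0.0935). Among these 16 fits, its call was kept without either progenitor library of day 120 and without replicate 1 of neuron day 40 or 60. SLC2A3 lost its call in 9 fits (adjusted p 0.05001 to 0.116) and kept it without replicate 2 of progenitor days 40 and 60, replicate 1 of progenitor days 90 and 120, neuron day 40 replicate 1, neuron day 60 replicate 2 or neuron day 90 replicate 2. SLC16A3 lost its call in 8 fits (adjusted p 0.0501 to 0.102), those without progenitor day 40 replicate 2, replicate 1 of progenitor days 60 and 90, neuron day 40 replicate 2, replicate 1 of neuron days 60 and 90 or either library of neuron day 120. Without scaling, 0 of the 34 genes passed in any limma comparison, while between the populations 1025 of all 18755 genes were higher and 653 lower. At an unadjusted p under 0.05 between the populations there were 3 of the 34 genes and 4365 of all 18755.

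In hypoxia sensing, 0 of 4 genes passed between the populations. EPAS1 had the largest difference of the group and held 1.11 to 8.91 kb in progenitors with a median of 5.44 kb, and 2.06 to 6.97 kb in neurons with a median of 4.64 kb. Its difference was 0.20 ± 0.13 (adjusted p = 0.313), and with lists of equal length it was -1.09 (adjusted p = 0.0455). HIF1A, the hypoxia-inducible factor 1 alpha subunit, held 2.31 to 6.47 kb in progenitors with a median of 4.29 kb, and 2.40 to 7.04 kb in neurons with a median of 3.80 kb. HIF1A differed by 0.07 ± 0.14 (adjusted p = 0.774), and its sign turned with 5 kb flanks (-0.04). EGLN1 and EGLN3, prolyl hydroxylases that act on these subunits, stood at -0.10 and -0.03.

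In hypoxia targets, 0 of 9 genes passed. NDRG1, a stress-responsive gene also known for its role in Schwann cells, had the largest difference of all 34 genes, at -0.49 ± 0.18 (adjusted p = 0.0525). It held 1.34 kb at the lowest, 2.45 kb at the median and 5.03 kb at the highest in progenitors, against 1.66, 3.52 and 6.72 kb in neurons. With lists of equal length the NDRG1 difference shrank to -0.02 (adjusted p = 0.960). It passed without the 2 shortest lists, a setting chosen after seeing the data (-0.75, adjusted p = 0.00646), and in 6 of the 16 fits that left out 1 library. VEGFA, the vessel growth factor, held 0.83 to 4.88 kb in progenitors with a median of 3.79 kb, and 1.88 to 4.81 kb in neurons with a median of 3.02 kb. VEGFA differed by 0.03 ± 0.13 (adjusted p = 0.906), and its sign was negative in 6 of 26 alternatives. The other 7 lay between -0.17, for the mitophagy receptor BNIP3L, and 0.16, for ADM, the vasodilator peptide adrenomedullin. ADM held 2.53 to 8.30 kb in progenitors with a median of 7.64 kb, and 3.68 to 8.35 kb in neurons with a median of 4.90 kb, and did not pass (adjusted p = 0.380). P4HA1, a collagen prolyl hydroxylase, stood at -0.01 and DDIT4, an inhibitor of mTORC1 signalling, at -0.12.

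**Figure D3:**
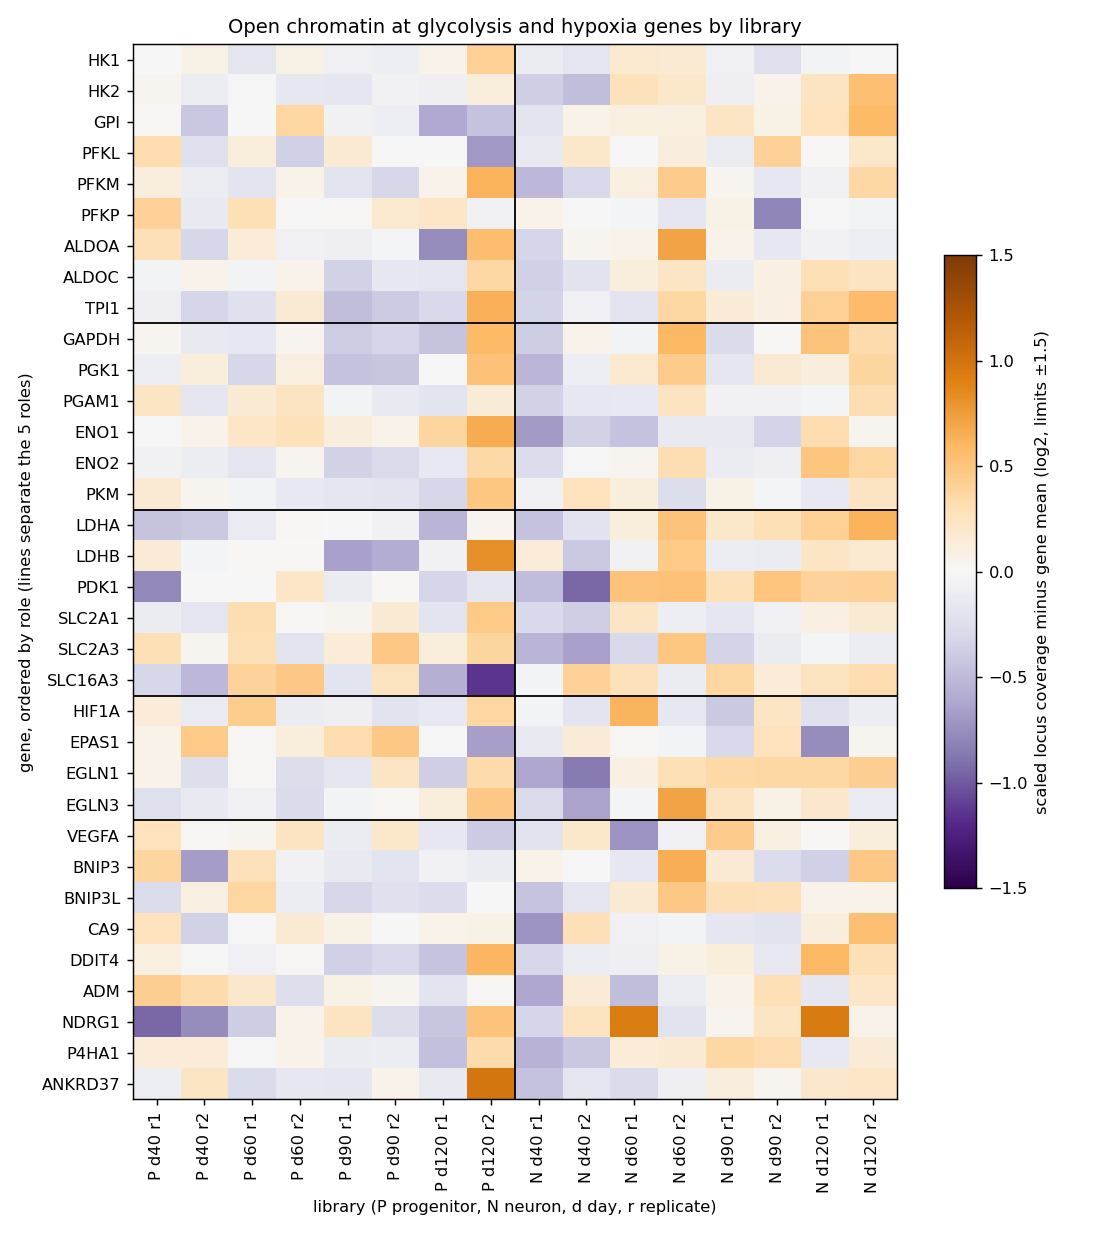
Scaled locus coverage of each gene minus its own mean over the 16 libraries (colour, log2, orange above and purple below the mean), with genes in rows by role and libraries in columns, progenitors left of neurons and days in order. The column of progenitor day 120 replicate 2, the shortest list, has ANKRD37 well above its mean and SLC16A3, the darkest purple cell, well below its own.

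At HK1 and PDK1 single open regions passed between the populations while the whole loci did not. The windows of the 34 genes held 391 regions, the union of all peaks, and 72 of them, 18.4%, were open in all 16 libraries, against 7.72% of all 321056 regions. A further 127 were open in 1 library only. Of the 180 regions tested, 4 were called higher in progenitors and 0 lower (Fisher's exact test, two-sided, Benjamini-Hochberg adjustment over 182575 regions), where 3.06% and 1.27% of all regions tested were. So the 4 regions, in number, do not stand above the regions at large. At an unadjusted p under 0.05 18 of the 180 were higher and 10 lower, where 11% and 7.16% of all regions tested were. At chr10:69345749-69346582, inside HK1 and 11135 bases from the nearest RefSeq start, a peak stood in 8 of 8 progenitor libraries and in 0 of 8 neuron libraries (adjusted p = 0.0118). At chr10:69278246-69279154 a peak stood in 8 progenitor libraries and in 1 neuron library, which was of day 40 (adjusted p = 0.0323). This region takes in the HK1 start at 69278496, whose own 300-base window held a peak in 7 progenitor and 0 neuron libraries. The region chr10:69270250-69271152, 245 bases from the most upstream HK1 starts, was open in 7 progenitor and 0 neuron libraries (adjusted p = 0.0323), the library without it being of day 60. Both libraries of every progenitor day held the other HK1 regions.

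PDK1 encodes a kinase that inhibits pyruvate dehydrogenase, the enzyme that turns pyruvate into acetyl-CoA for the citric acid cycle. A region inside it, at chr2:172680434-172681133, was open in 7 progenitor libraries, the exception being a day 40 library, and in 0 neuron libraries (adjusted p = 0.0323). The PDK1 window also holds the gene RAPGEF4. Over its whole locus PDK1 held 2.74 to 9.33 kb in progenitors with a median of 7.87 kb, and 4.52 to 11.2 kb in neurons with a median of 7.46 kb. The scaled difference of that locus was negative and did not pass (-0.29 ± 0.11, adjusted p = 0.0592), while the region inside it was open in progenitors. All 4 calls held in each fit that left out 1 library. With peaks of −log10 q of at least 2, the HK1 region at 69345749 and the PDK1 region still passed (adjusted p = 0.0287 each), and the HK1 regions at 69270250 (0.151) and 69278246 (0.0714) did not. None of the 4 passed at a required overlap of 50% or with lists of equal length. The HK1 start at 69319064 was open in all 16 libraries, and that at 69318181 in 6 progenitor and 8 neuron libraries.

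**Figure D4:**
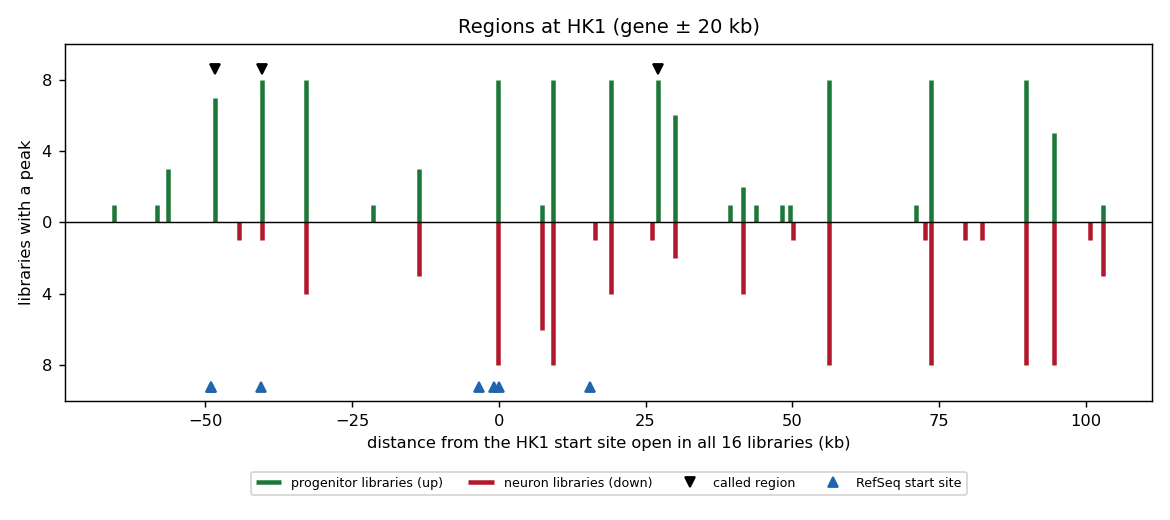
Number of libraries with a peak over each region in the HK1 window (progenitors upward, neurons downward; y axis, of 8 each) by distance from the HK1 start open in all 16 libraries (x axis, kb). Black triangles mark the 3 regions that passed Fisher's exact test, which reach 7 or 8 progenitor libraries and at most 1 neuron library, and blue triangles mark RefSeq starts.

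Across organoid age, EGLN1, PDK1 and HK2 passed a test in neurons and SLC16A3 in progenitors. For days 90 and 120 against days 40 and 60 in progenitors, 0 of 34 genes passed limma at an adjusted p of 0.05, where 1.44% of all genes were higher and 1.46% lower, and 2 of the 34 (SLC16A3 and NDRG1) had an unadjusted p under 0.05, where 16.3% of all genes did. In neurons 1 of 34 was higher late, EGLN1, and 0 were lower, where 3.30% and 2.37% of all genes were. The EGLN1 window also holds the gene SPRTN. In neurons EGLN1 held 4.01 and 3.08 kb at day 40, 5.37 and 3.95 kb at day 60, 6.21 and 6.31 kb at day 90, and 4.85 and 4.45 kb at day 120. Late and early libraries overlapped in kilobases, and the scaled difference, late minus early, was 0.64 ± 0.17 (limma, adjusted p = 0.0224). In progenitors EGLN1 held 4.89 and 4.12 kb, 5.32 and 3.79 kb, 5.50 and 7.18 kb, and 3.86 and 2.56 kb on the same days, a scaled difference of 0.11 ± 0.17 (adjusted p = 0.854).

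Marker loci of cell types moved with age in the same libraries. In neurons the progenitor markers SLC1A3 and FABP7, 2 of 7, were higher late, at 0.80 and 0.68, and the summed progenitor markers held 35.8 to 49.7 kb in late and 27.5 to 44.9 kb in early neuron libraries. RBFOX3, 1 of 8 neuron markers, was lower late in neurons at -0.60, and so was MBP, 1 of 5 markers of the oligodendrocyte lineage, at -0.97. The neuron markers as a list went the other way, with 6 of 8 positive late minus early in neurons and a median of 0.15. Of all genes, 3.30% were higher and 2.37% lower late in neurons. Of 5 mesenchymal markers, DCN was higher late in neurons at 0.93 and PDGFRB lower at -0.64. As a list they had 1 of 5 positive and a median of -0.42. In progenitors the neuron marker DCX was higher late at 0.72 and RBFOX3 lower at -0.45. The part of these cells in the differences with age was not tested.

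The EGLN1 call was lost without scaling (0.38, adjusted p = 0.308) and turned in sign with lists of equal length (-0.25, adjusted p = 0.388). It was also lost without neuron day 40 replicate 2, neuron day 60 replicate 1 or any 1 of the 4 late neuron libraries (adjusted p 0.0644 to 0.104). Removing the scaling moved the median of all genes for late minus early in neurons to -0.20, against 0.06 with it. A region inside EGLN1 at chr1:231387053-231387574, found after the values had been seen, was open in both neuron libraries of days 90 and 120, in 0 of days 40 and 60 and in 0 progenitor libraries.

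The difference between the populations in the change with age passed for 0 of the 34 genes in limma, where 0.261% of all genes were higher and 0.368% lower. At an unadjusted p under 0.05 there were 6 of the 34 genes and 12.7% of all genes. So a change with age in neurons alone was not shown for EGLN1 (interaction -0.53 ± 0.24, adjusted p = 0.344).

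Tests over the 4 days gave 3 of 34 genes in neurons and 1 in progenitors, where 9.72% and 4.87% of all genes passed. PDK1 and HK2 are described here because of these tests, after their values had been seen. PDK1 spanned 1.23 between its lowest and highest scaled day means in neurons (limma F test, adjusted p = 0.00219), EGLN1 1.13 (0.00767) and HK2 0.81 (0.0233). PDK1 held 6.82 and 4.52 kb at day 40, 11.2 and 7.27 kb at day 60, 9.05 and 10.7 kb at day 90, and 7.65 and 6.79 kb at day 120 in neurons. In neurons the lowest PDK1 library was of day 40, and replicate 2 of that day decided the PDK1 and EGLN1 calls (adjusted p = 0.0892 and 0.139 without it). HK2 held 6.82 and 5.87 kb, 8.61 and 5.22 kb, 6.36 and 7.03 kb, and 6.22 and 6.85 kb in neurons on the same days, without an order in kilobases. The HK2 call was lost without either neuron library of day 40 or neuron day 120 replicate 2 (adjusted p 0.0795 to 0.171). Without scaling, the spans among neuron days were 0.08 for HK2 (adjusted p = 0.999), 0.77 for PDK1 (0.451) and 0.75 for EGLN1 (0.302). With lists of equal length the calls were lost as well, with spans of 1.10 for HK2 (adjusted p = 0.177), 0.81 for PDK1 (0.136) and 0.43 for EGLN1 (0.494).

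In progenitors SLC16A3 spanned 1.29 (limma F test, adjusted p = 0.0153). It held 2.57 and 2.35 kb at day 40, 5.11 and 4.79 kb at day 60, 3.91 and 5.27 kb at day 90, and 2.31 and 0.32 kb at day 120 in progenitors. Libraries of days 60 and 90 lay above those of days 40 and 120. With lists of equal length SLC16A3 no longer passed (span 1.37, limma F test, adjusted p = 0.229). It did not pass with a pseudocount of 2000 bases (0.60, 0.358), without scaling (1.84, 0.0647) or with −log10 q of at least 2 (0.96, 0.140). The call was lost without either progenitor library of day 60 or without progenitor day 120 replicate 2 (adjusted p 0.0535 to 0.0663).

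**Figure D5:**
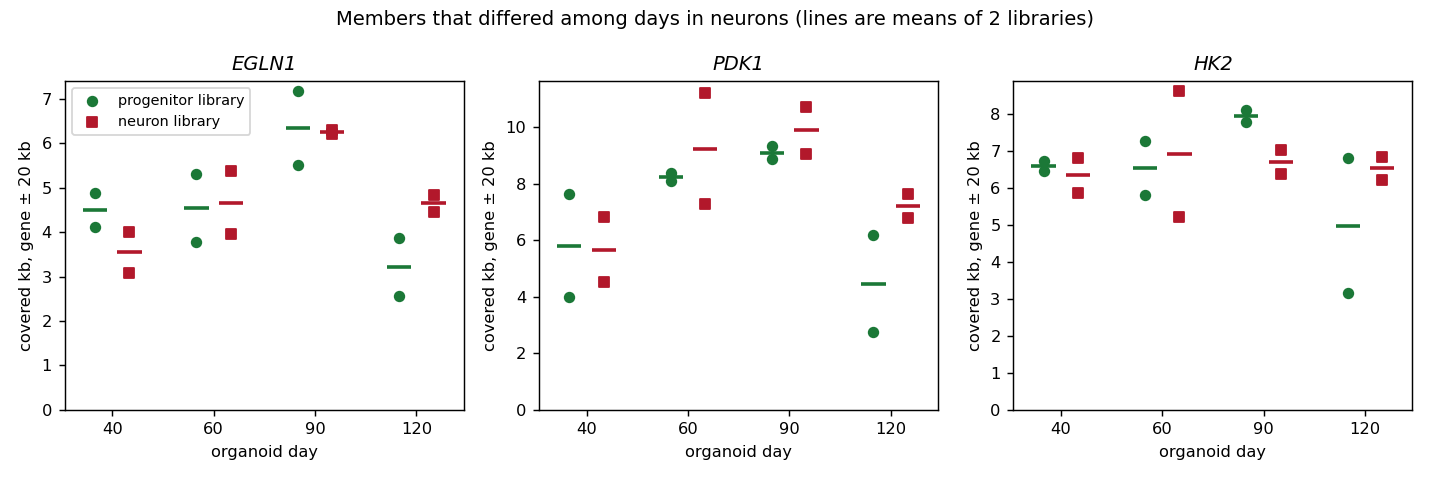
Covered kilobases in the gene and 20 kb on either side for EGLN1, PDK1 and HK2 (y axis) by organoid day (x axis); each point is a library, progenitors left of neurons, and lines are means of 2 libraries. In neurons the EGLN1 libraries of day 90, at 6.21 and 6.31 kb, are the highest of that gene, and in scaled coverage the late minus early difference of EGLN1 turned to -0.25 with lists of equal length.

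Without scaling the median of all genes for progenitors minus neurons stood at -0.18, 0.16, 0.20 and -0.14 on days 40, 60, 90 and 120, against 0.16, -0.12, -0.13 and -0.06 with it. At single days, 0 of 34 genes passed in limma between progenitors and neurons at day 40, where 4.37% of all genes were higher and 2.27% lower. At day 60 (2.68% and 3.35%) and at day 90 (1.10% and 1.35%) 0 of 34 passed as well. At an unadjusted p under 0.05 there were 8, 2 and 2 of the 34 on days 40, 60 and 90, where 21.1%, 19.9% and 16% of all genes were. At day 120, 0 were higher and 2 were lower, where 2.87% and 4.0% of all genes were. SLC16A3 held 2.31 and 0.32 kb in day 120 progenitors and 3.16 and 2.92 kb in day 120 neurons, a scaled difference of -1.14 ± 0.26 (limma, adjusted p = 0.00835). GPI held 2.22 and 0.811 kb in day 120 progenitors and 3.17 and 3.53 kb in day 120 neurons, a scaled difference of -0.95 ± 0.24 (limma, adjusted p = 0.0186). The 2 populations did not overlap at either gene on that day, which held for 9 of the 34 genes and for 26.6% of all genes. Of the markers on day 120, 1 of 7 progenitor markers passed, HES1, and not SOX2, while the neuron marker DCX was higher in progenitors at 0.68 and the neuron marker RBFOX3 lower at -1.02. SPARCL1 of the astroglia list and TTR of the choroid plexus list were higher in day 120 progenitors, at 2.46 and 1.07. Of the mesenchymal list DCN was lower at -1.36, while the list went the other way, with 4 of 5 positive and a median of 0.71. The part of these cells in the day 120 differences was not tested. Without progenitor day 120 replicate 2, the shortest list, SLC16A3 stood at -0.85 (adjusted p = 0.0575), and GPI kept its call. Both calls were lost without either neuron library of day 120 (adjusted p 0.0565 to 0.206), in fits that take the lone library to vary as the other groups do.

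Other genes of the same pathways, from lists drawn up by function, were scored in the same way. Of 18 other genes of glycolysis and sugar use, 1 was higher and 0 were lower in progenitors, FBP1, a gluconeogenic phosphatase, at 0.71 ± 0.16 (limma, adjusted p = 0.00192). Of 24 other hypoxia genes, 3 were higher and 2 lower. PDK3, another pyruvate dehydrogenase kinase, stood at 0.89 ± 0.13 (limma, adjusted p = 1.44e-05), LOX, a lysyl oxidase, at 0.75 ± 0.15 (0.000879), and ERO1A, an oxidase of the endoplasmic reticulum, at -0.42 ± 0.12 (0.0131). Of 20 genes of mitochondrial oxidation, 1 was higher, PPARGC1A, a coactivator of mitochondrial genes, at 0.27 ± 0.08 (0.0124), and 1 lower, OGDH, of the citric acid cycle, at -0.41 ± 0.13 (0.0219). Among all genes tested, 9.90% were higher and 11.1% lower in progenitors. The median differences of the 3 lists were -0.02, 0.04 and -0.10, with -0.05 over all genes. With age, PLOD2, a collagen lysyl hydroxylase, was higher late in progenitors at 0.88 ± 0.19 (limma, adjusted p = 0.0121). HK3, a hexokinase best known from white blood cells, at -1.18 ± 0.27 (limma, adjusted p = 0.0093), and PPARGC1A, at -0.43 ± 0.11 (0.018), were lower late in neurons. PLOD2 was 1 of 24 hypoxia genes, HK3 1 of 18 glycolysis genes and PPARGC1A 1 of 20 genes of mitochondrial oxidation, where 1.44% of all genes were higher late in progenitors and 2.37% lower late in neurons.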

How the data were processed

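Open chromatin was measured by ATAC-seq, and per the labels Tn5 acted on isolated nuclei for 30 minutes. The submitters' processing notes name MACS2 2.1.2, SAMtools 1.9, Picard, BWA 0.7.17 and Trim Galore 0.5.0, and hg38 as the build. How duplicates and the Tn5 offset were handled is not given in the sources used here. Broad peaks were called by the authors on each library separately. The deposited lists give a score per peak, a fold enrichment ratio and −log10 p and −log10 q, which are the authors' values and were used to rank or filter peaks inside a list, never between lists. Depth is unknown, and a library with more reads can list more and broader peaks.

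From the peaks on chromosomes 1 to 22 and X, covered bases in each gene and 20 kb on either side and peaks within 1 kb of either gene end were computed. Gene positions and sequences came from RefSeq tables of GRCh38.p14. Scaled coverage was fitted in limma 3.58.1 (R 4.3.3), with a prior variance trend and 8 group means in 1 fit, for genes that reached 500 covered bases in 2 or more libraries. Presence of peaks was tested by Fisher's exact test (scipy 1.17.1), two-sided, for genes and merged regions with a peak in 2 to 14 libraries. P-values were adjusted by Benjamini-Hochberg over all features tested. The scripts were tested on simulated data. Groups and replicate numbers came from the titles and from the labels for stage and cell type.

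The 34 genes and the other lists were chosen with earlier results of these data known. Values are given for every gene past the threshold between populations, with age or in the interaction, for the largest difference in each role, and for GAPDH, LDHA, PKM, SLC2A1, HIF1A, EPAS1 and VEGFA; from each other list at most 3 called genes are named. Alternatives were no scaling, lists cut by −log10 q to the covered length of the shortest (lists of equal length), pseudocounts of 100 and 2000 bases, no filter, flanks of 5 kb, −log10 q of at least 2, other gene-end windows, a 50% overlap, a replicate block and leaving out each library.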

Additional observations from a re-analysis of the deposited data

Results flagged for a closer look

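In HK2, progenitor day 120 replicate 2 held 3.14 covered kb, set apart from the other 7 progenitor libraries, which held 5.81 to 8.12 kb. In VEGFA the same library held 0.83 kb, while the other 7 held 3.11 to 4.88 kb. Both were marked because the gap to the nearest library made up an unusually large part of the group's whole range. That library has the shortest peak list, with 36.9 Mb covered. Of 30 groups checked, 15 genes in each population, 2 were marked, and chance marks about 1 in 20 groups.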

How the results depend on the processing

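The counts of calls among the 34 genes moved with the processing, and the cause was not tested. The counts over all genes moved too. Between progenitors and neurons, lists of equal length gave 2008 higher and 2920 lower of 17586 genes tested, 33 of the 34 among them. Without scaling 1025 of 18755 genes were higher and 653 lower. Counts below without a number over all genes beside them cannot tell a change in the 34 genes from a change in all genes. Between progenitors and neurons, 2 higher and 2 lower calls became 0 and 0 without scaling or with a pseudocount of 2000 bases, and 1 and 1 with 5 kb flanks. Lists of equal length gave 7 lower, −log10 q of at least 2 gave 1 higher, and leaving out single libraries gave 1 to 2 higher and 0 to 7 lower, with 7 without progenitor day 120 replicate 2. Leaving out the 2 shortest lists, chosen after seeing the data, gave 5 lower. For late minus early, lists of equal length gave 1 lower in progenitors, where 620 of 17586 genes were. In neurons the 1 higher call became 0 without scaling or with −log10 q of at least 2, 2 with 5 kb flanks, 5 without the 2 shortest lists and 0 to 2 without single libraries. The interaction gave 4 lower without the 2 shortest lists. At day 40, 4 were higher without the 2 shortest lists, 0 to 2 without single libraries, and 1 was lower with 5 kb flanks. With lists of equal length, day 60 gave 1 higher and 1 lower, where 816 and 875 of 17586 genes were. Days 90 and 120 gave 1 higher each under that setting, where 724 and 595 genes were. Among days in progenitors it gave 1 as well, which was not SLC16A3. The 2 lower at day 120 became 0 without scaling, with a pseudocount of 2000 or with 5 kb flanks, 1 with lists of equal length, 8 without the 2 shortest lists and 0 to 3 without single libraries. Among days in progenitors, 1 became 0 without scaling, with a pseudocount of 2000, with −log10 q of at least 2 and without the 2 shortest lists, and 0 to 5 without single libraries (5 without progenitor day 120 replicate 1). Among days in neurons, 3 became 0 without scaling, 1 with lists of equal length, 9 without the 2 shortest lists and 0 to 6 without single libraries (0 without neuron day 40 replicate 2). The count of 4 regions higher in progenitors became 0 at 50% overlap and 1 with lists of equal length, a region other than those 4. It became 2 with −log10 q of at least 2 and 4 to 7 without single libraries. Regions lower in progenitors were 1 with lists of equal length and 0 to 2 without single libraries. Gene-end calls stayed at 0 in each alternative run.

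Signs of the progenitor minus neuron difference turned for PKM with −log10 q of at least 2 (0.047) and lists of equal length (0.78), with -0.15 to 0.047 without single libraries. They turned for HIF1A with 5 kb flanks (-0.040) and without the 2 shortest lists (-0.092), with -0.027 to 0.17 without single libraries, and for VEGFA with −log10 q of at least 2 (-0.053), with -0.053 to 0.11 without single libraries. GAPDH turned with 5 kb flanks (0.0067), SLC2A3 and EPAS1 with lists of equal length (-0.59 and -1.09), and EGLN1, late minus early in neurons, likewise (-0.25). Of these turned values, those of PKM and EPAS1 with lists of equal length passed an adjusted p of 0.05.

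Same-numbered libraries of the populations did not deviate together on every day (correlations across genes of -0.12, 0.21, 0.06 and 0.16 on days 40, 60, 90 and 120). Whether they share more than a number cannot be told from these correlations. With the replicate block of day and number, 4 genes were lower in progenitors against 2 without it, and 2 were higher in both fits. The lists hold no reads, so a gene without a peak in a short list may be open below the level that could be called.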

Other observations

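Some regions in the windows of these genes followed the sort without passing the adjustment, and were picked after their values had been seen. At HK2, regions at chr2:74828115-74829209, outside the gene, and chr2:74888082-74889028, inside it, were each open in 0 progenitor and 6 neuron libraries (Fisher's exact test, adjusted p = 0.08 each). At EPAS1, chr2:46319881-46320976 inside the gene was open in 8 progenitor libraries and in 2 neuron libraries, both of day 40 (adjusted p = 0.08). At EGLN1, chr1:231395353-231396184 inside the gene was open in both progenitor libraries of days 40, 60 and 90, in 0 of day 120 and in 0 neuron libraries (adjusted p = 0.08). At PDK1, chr2:172702194-172703169 and chr2:172599189-172600236 were open in both neuron libraries of days 60, 90 and 120 and in 0 of day 40.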
